A study of Mus musculus with 6 samples.

Results

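The 36 mitosis genes described here encode proteins that carry a cell from late G2 phase through mitosis and cytokinesis, and they were chosen by gene symbol. The rule uses no measured value, but it was set with earlier results of these data known. All 36 were found once by symbol among the 32285 genes of the matrices. By role they were 5 genes of cyclins, CDK1 and its partner (Ccna2, Ccnb1, Ccnb2, Cdk1, Cks2), 7 mitotic kinases (Aurka, Aurkb, Plk1, Bub1, Bub1b, Pbk, Cit), 2 partners of the chromosomal passenger complex (Birc5, Incenp), 2 genes of the ubiquitin pathway (Ube2c, Cdc20), 7 genes of the kinetochore and centromere (Cenpa, Cenpe, Cenpf, Knl1, Nuf2, Ndc80, Spc25), 8 of the spindle and its microtubules (Tpx2, Hmmr, Nusap1, Prc1, Kif11, Kif20b, Kif23, Kif2c), 3 of cytokinesis (Anln, Ect2, Racgap1) and 2 of the chromosome itself (Mki67, Top2a). Their transcripts were counted as unique molecular identifiers (UMIs, each marking 1 captured molecule) in single-cell RNA sequencing of EpCAM+ epithelial cells from the ileal crypts of mice, on the MobiNova-100 droplet platform. 3 libraries came from Fpr2f/f mice, in which both Fpr2 alleles are flanked by loxP sites and no Cre is present (labelled WT), and 3 from Fpr2VKO mice, in which the same floxed alleles are combined with Cre driven by the Villin promoter, which is active along the intestinal epithelium and therefore does not separate crypt cell types. The floxed line is on the C57BL/6J background, and the study's methods describe adult mice matched for age and sex. Each library was taken as a separate mouse, since the study lists as many mice per group as there are libraries. Fpr2 encodes a formyl peptide receptor.

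In the small intestine, stem cells at the crypt base and their transit-amplifying daughters divide, while enterocytes, goblet cells, Paneth cells, enteroendocrine cells and tuft cells have for the most part left the cell cycle. Genes of this kind are transcribed late in the cycle. In resting cells and in G1 phase they are held down by the DREAM complex, which binds the cell cycle genes homology region (CHR) of their promoters, and in G2 phase B-MYB and FOXM1 act through the same element, often beside CCAAT boxes bound by NF-Y. During and after mitosis several of the proteins are destroyed by the anaphase-promoting complex, for which Ube2c is an E2 enzyme and Cdc20 an activator.

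Because the 36 genes share this late timing, their promoters were read first. RefSeq promoter windows (GRCm38.p6, 250 bases before to 50 bases after the annotated start) were matched for 31 of the 36 members, and Ccna2, Tpx2, Aurkb, Pbk and Incenp had no entry. The CHR letters TTTGAA, or TTCAAA on the other strand, stood in 23 of 31 member windows (74.2%), against 20.2% of all 27025 genes with a window. CCAAT, or ATTGG on the other strand, stood in 22 of 31 (71.0%), against 41.1% of all genes. Both stood in 18 of 31 (58.1%), against 7.97% of all genes. A CHR match within 50 bases of the start was present in 21 of 31 members (67.7%) and in 5.72% of all genes. The motifs do not contain each other, although adjacent matches can share a base. A match is a description of the letters and not evidence of binding. The following 6 windows, 130 bases before to 30 bases after the start, are shown because these members are the examples used below, for a B-type cyclin, its kinase, the mitotic ubiquitin machinery, the chromosome and the spindle midzone. All 6 hold both motifs, so they do not stand for the members without a CHR match, which were Ccnb1, Cks2, Bub1, Cit, Birc5, Cenpe, Nuf2 and Nusap1. The capitals mark CHR and CCAAT matches.

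Ccnb2 promoter, chr9:70421525-70421684, minus strand: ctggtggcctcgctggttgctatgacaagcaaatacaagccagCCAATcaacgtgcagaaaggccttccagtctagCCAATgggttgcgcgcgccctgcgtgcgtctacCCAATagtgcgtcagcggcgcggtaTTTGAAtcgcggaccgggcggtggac
Cdk1 promoter, chr10:69352883-69353042, minus strand: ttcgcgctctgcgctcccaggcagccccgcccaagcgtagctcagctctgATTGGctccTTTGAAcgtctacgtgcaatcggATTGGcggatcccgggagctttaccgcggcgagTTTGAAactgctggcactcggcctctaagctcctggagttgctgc
Cdc20 promoter, chr4:118437314-118437473, minus strand: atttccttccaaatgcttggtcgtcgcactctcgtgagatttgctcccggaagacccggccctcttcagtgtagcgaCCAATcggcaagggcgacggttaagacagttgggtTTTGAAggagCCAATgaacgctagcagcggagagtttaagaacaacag
Ube2c promoter, chr2:164769799-164769958, plus strand: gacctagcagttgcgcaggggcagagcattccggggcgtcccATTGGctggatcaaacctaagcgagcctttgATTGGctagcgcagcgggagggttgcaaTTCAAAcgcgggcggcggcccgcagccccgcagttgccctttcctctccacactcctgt
Top2a promoter, chr11:99024160-99024319, minus strand: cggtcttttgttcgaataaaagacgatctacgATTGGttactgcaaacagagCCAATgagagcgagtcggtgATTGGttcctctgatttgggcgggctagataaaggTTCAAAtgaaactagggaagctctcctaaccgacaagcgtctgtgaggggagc
Kif23 promoter, chr9:61946770-61946929, minus strand: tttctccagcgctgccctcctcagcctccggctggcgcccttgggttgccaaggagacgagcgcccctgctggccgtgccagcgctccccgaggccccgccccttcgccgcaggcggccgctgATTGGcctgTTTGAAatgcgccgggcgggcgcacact

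In these 6 windows the CHR lay at the start itself in Ccnb2 (base 5) and Kif23 (base 3), counted from the first base of its match, and before it in Cdk1 (-71 and -15), Cdc20 (-18), Top2a (-23) and Ube2c (-29). The other G2/M and mitosis genes, a list of 66 taken for comparison, had a CHR in 32 of 53 matched windows (60.4%). The 34 S-phase genes had one in 5 of 28 matched windows (17.9%), and the G1 cyclins and CDK inhibitors in 1 of 9 (11.1%).

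In the GENCODE annotation of GRCm38, exons of 7 members overlap another gene. Ccna2 overlaps Exosc9, Cdc20 Elovl1, Nusap1 Oip5, Prc1 Rccd1, Ube2c Tnnc2 and Plk1 a transcript of unknown type, all 6 on the opposite strand, and Top2a contains a small nucleolar RNA. Pseudogenes named after Ccnb1 and Ccnb2 are also annotated. Whether the counting used strand is not given in the sources used here, so some UMIs of these 9 members may belong to their neighbours or copies. Of the members that recur below, Ccnb1 lies on chromosome 13 (100778650 to 100786570, minus strand), Cenpf on chromosome 1 (189640606 to 189688086, minus strand), Hmmr on chromosome 11 (40701395 to 40733422, minus strand), Mki67 on chromosome 7 (135689784 to 135716361, minus strand) and Top2a on chromosome 11 (98992943 to 99024189, minus strand).

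The libraries held 90142126 to 189516114 UMIs in all. After a limit of 1000 UMIs, 500 genes and 20% mitochondrial UMIs, 17104 barcodes were kept, 1868 to 4722 per library, and 469638 of their UMIs came from the 36 members. Before the mitochondrial limit there were 12027, 13764 and 9736 barcodes in Fpr2f/f replicates 1 to 3 and 22872, 11596 and 13007 in Fpr2VKO replicates 1 to 3. Of these, 2643, 4722 and 2836 against 2267, 2768 and 1868 were kept, so most were removed in every library. The kept part was smallest in Fpr2VKO replicates 1 and 3. Median UMIs per kept barcode were 3033, 4602 and 4612 in Fpr2f/f replicates 1 to 3 and 6358, 6728.5 and 6686.5 in Fpr2VKO replicates 1 to 3, without overlap. Of the kept barcodes, 95.7% held Epcam, which marks the sorted epithelium, 73.0% held Vil1 and 3.06% held the leukocyte gene Ptprc. Fpr2 had 0 UMIs in the kept barcodes of each of the 6 libraries, which allows up to 3 UMIs there per library. The genotype labels could therefore not be checked from its transcript in these barcodes. Only 123 barcode sequences occurred in more than 1 library, and they covered 1.44% of kept barcodes. Free RNA, taken as barcodes under 100 UMIs, held 7.25% to 13.1% of all UMIs of a library, and the members made up 887 to 1247 CPM there (CPM, UMIs of a gene or genes scaled to a common UMI total per library).

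Barcodes were sorted into classes by marker lists that held no member and no other cell cycle gene. A barcode over the limit of 1 list took its name, a barcode over the limits of none was placed in a no-lineage class, and 535 barcodes over several limits were set aside. The stem class held 1524 barcodes, the enterocyte class 2319, the goblet class 1843, the Paneth class 708, the enteroendocrine class 473, the tuft class 286 and an immune class 313. The remaining 9103 barcodes were the no-lineage class, which has no marker of its own and is named by that rule only. Of all kept barcodes, 1299 lay within 1.5 times of the stem limit and 2039 within 1.5 times of the enterocyte limit, so these edges are not sharp. The stem list held Lgr5, Ascl2, Smoc2, Olfm4, Gkn3, Axin2, Rgmb, Znrf3 and Tnfrsf19. Most of its UMIs in the stem class were of Olfm4, at 7349 CPM against 229 for the next, Smoc2.

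The 36 genes were concentrated in the stem and no-lineage classes. Summed over all 36, their level in the stem class was 4095, 3810 and 3266 CPM in Fpr2f/f replicates 1 to 3 and 3751, 3898 and 4315 in Fpr2VKO replicates 1 to 3. In the no-lineage class it was 3279, 3168 and 2410 in the Fpr2f/f group and 3121, 3384 and 3766 in the Fpr2VKO group. In the enterocyte class it was 308 to 511 CPM over the 6 libraries, so that the lowest stem library lay far above the highest enterocyte library. The Paneth class was lowest, at 106 to 192 CPM. Intermediate sums were found in the goblet class (669 to 1034), the enteroendocrine class (359 to 831) and the tuft class (621 to 1378). The Paneth, enterocyte and enteroendocrine sums all lay below the free RNA of every library (887 to 1247). The immune class, of only 23 to 89 barcodes per library, ranged from 463 to 2495. Each member had 22.2% to 32.9% of its kept UMIs in the stem class and 58.8% to 66.8% in the no-lineage class, while the 5 epithelial lineage classes together held 6.0% to 14.2%.

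**Figure D1:**
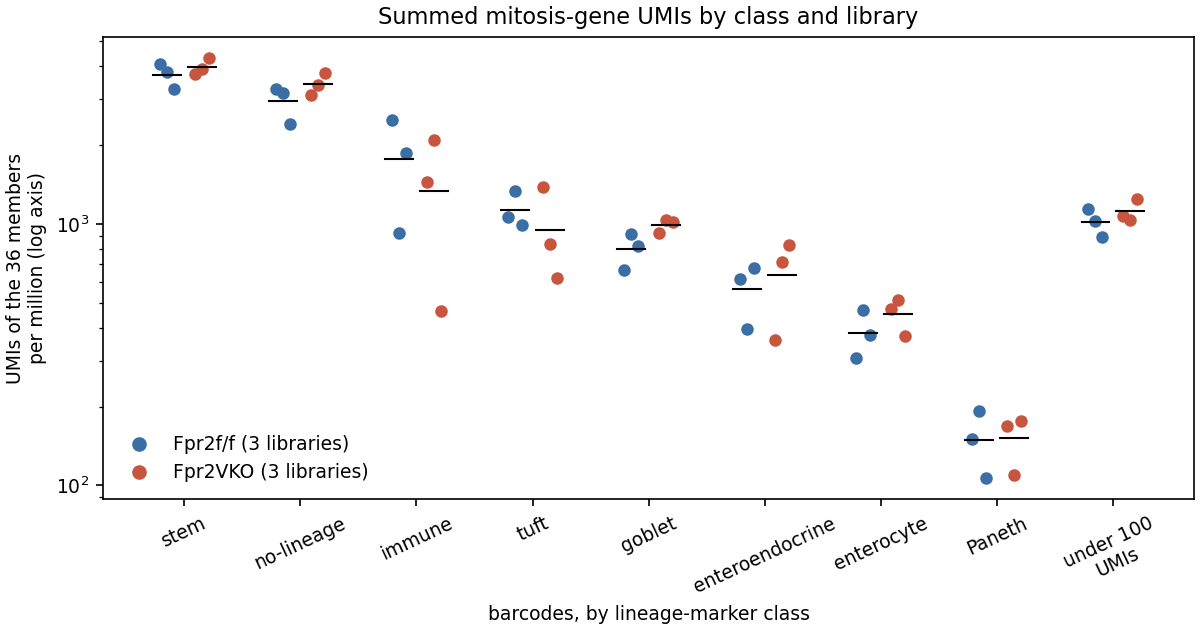
Summed UMIs of the 36 mitosis genes, in CPM (log axis), in each marker class and in barcodes under 100 UMIs, which stand for free RNA. Points are the 3 Fpr2f/f (blue) and 3 Fpr2VKO (red) libraries and black lines are group means. The stem libraries lie between 3266 and 4315 and the Paneth libraries between 106 and 192.

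Within libraries, all 36 members were higher in the stem class than in the enterocyte class (edgeR quasi-likelihood test with library as a block, adjusted p under 0.05 over 12627 genes), where 39.2% of all genes tested were called higher. The members' median log2 difference was 3.28, against 0.03 over all genes, and single members ranged from 1.31 to 4.36. The largest differences were those of Nuf2, a subunit of the NDC80 complex that holds microtubules at the kinetochore (log2 4.36, SE 0.16), Aurkb, the kinase of the passenger complex (4.24, SE 0.16), and Pbk, a mitotic kinase (4.14, SE 0.15). The smallest were those of Kif23, a kinesin of the central spindle (1.31, SE 0.08), Cks2, the small CDK-binding protein (2.1, SE 0.07), and Aurka, the centrosomal Aurora kinase (2.38, SE 0.13). Kif23 was also the member with the largest share of its UMIs in lineage classes, 14.2%, and the one whose UMIs lay least in barcodes rich in the other members.

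The no-lineage class gave almost the same picture against enterocytes. All 36 members were higher there, with 34.3% of all genes called higher, a median of 3.0 and a range of 1.29 to 3.71. Between the stem and the no-lineage class of the same libraries, 28 of 36 were higher in the stem class and 0 lower, with 29.3% of all genes called higher. The median was then only 0.29. The members not called were Aurka, Plk1, Ube2c, Cdc20, Cenpe, Spc25, Kif23 and Mki67. The largest of the 28 was Nuf2 (0.64, SE 0.08). All 36 remained higher in each of the 22 alternative fits against enterocytes, including fits to barcodes of at least 10000 UMIs and to barcodes thinned to 3000 UMIs. In those fits 33.6% to 77.1% of all genes were called in either direction.

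Single members followed the sums. Mki67, the gene of the proliferation antigen Ki-67, was measured at 161 to 222 CPM in the stem class, 170 to 208 in the no-lineage class, 39.0 to 88.8 in the goblet class, 21.7 to 28.0 in the enterocyte class and 5.64 to 14.9 in the Paneth class. Stem and no-lineage values of Mki67 overlapped, and neither overlapped with the other 3 classes. Ccnb1, the cyclin that activates CDK1 at mitotic entry, lay at 49.6 to 88.6 in the stem class, 36.9 to 73.7 in the no-lineage class, 10.8 to 13.0 in the goblet class and 1.40 to 11.4 in the enterocyte class. Cdc20 lay at 91.4 to 120 in the stem class, 72.7 to 138 in the no-lineage class, 17.5 to 30.4 in the goblet class and 9.09 to 24.0 in the enterocyte class. For Ccnb1 and Cdc20, too, no enterocyte library reached the lowest stem or no-lineage library. UMI counts are not per length, so levels are compared between classes and libraries, not between genes.

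Over all kept barcodes, without regard to class, the UMIs of each member lay mostly in a part of the barcodes. Barcodes with at least 10 UMIs of the 36 genes made up 38.7% of kept barcodes and 56.1% of kept UMIs, and 13.3% of kept barcodes held no member UMI. For each gene, 84.6% to 96.1% of its UMIs lay in barcodes with at least 10 UMIs of the other 35, the lowest being Kif23 and the highest Pbk. Since a deep barcode reaches 10 UMIs more easily, 8422 barcodes of at least 5000 UMIs were thinned to exactly 5000. The share with at least 10 member UMIs was then 69.4%, 58.7% and 41.5% of the stem class in Fpr2f/f replicates 1 to 3 and 53.0%, 56.1% and 65.6% in Fpr2VKO replicates 1 to 3. In the no-lineage class it was 56.2%, 59.8% and 48.3% in Fpr2f/f and 54.7%, 57.5% and 62.8% in the Fpr2VKO group. It was at most 4.97% in the enterocyte class, 0% to 7.81% in the Paneth class and 9.44% to 18.4% in the goblet class. Over all classes the shares were 38.9%, 41.3% and 30.3% in Fpr2f/f and 35.6%, 33.5% and 37.7% in the Fpr2VKO group, with overlap of the groups in each class named here. Thinned to 3000 UMIs with a limit of 6 member UMIs, the no-lineage share was 57.3%, 56.5% and 48.5% in Fpr2f/f against 55.9%, 63.2% and 64.9% in Fpr2VKO, with overlap.

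The comparison of Fpr2VKO with Fpr2f/f mice asks whether loss of the receptor from the epithelium changed transcripts of cell division. Over all kept barcodes the summed level of the 36 genes was 2491, 2017 and 1599 CPM in Fpr2f/f replicates 1 to 3 and 2125, 2054 and 2298 in Fpr2VKO replicates 1 to 3. The means were 2036 ± 446 and 2159 ± 126 (SD, n = 3 each), and the Fpr2VKO values lay inside the Fpr2f/f range. For 0 of the 36 genes did every Fpr2VKO library exceed every Fpr2f/f library, as 3.39% of all genes tested did, and for 0 did the reverse hold, as it did for 9.74%. None passed the test between groups (edgeR quasi-likelihood test on UMIs summed per library, 0 with adjusted p under 0.05, 0 with unadjusted p under 0.05 as 8.45% of all genes had, and 0 by DESeq2), where edgeR called 0.0177% of 16917 genes. The share of genes called beside each DESeq2 count, here and below, is that of edgeR. DESeq2 itself called 0.616% of 14945 genes here and 0.052% to 0.626% over the 10 group comparisons. For 33 of 36 the estimated log2 difference was above 0, with a median of 0.17 against 0.00 over all genes. The members varied together across single barcodes, as given below. Counts of members, here and in the comparisons that follow, are therefore not counts of independent results. Without Fpr2f/f replicate 3, which had the lowest sum, 19 of 36 were above 0 and the median was 0.01. At a mitochondrial limit of 10% in place of 20% the direction turned, with 0 of 36 above 0 and a median of -0.34, and without the top 5% of barcodes by UMIs the median was 0.37.

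Among the cyclins and their kinase, Ccna2, which acts from S phase into G2, was at 112, 72.1 and 63.0 CPM in Fpr2f/f and 84.4, 84.5 and 100 in the Fpr2VKO group. Ccnb1 was at 45.0, 28.1 and 24.1 against 38.7, 38.8 and 44.4, and its estimate of 0.39 (SE 0.19, adjusted p = 0.62) was the largest of all members. Cdk1, the kinase that drives mitotic entry, was at 89.2, 63.7 and 49.7 against 76.7, 71.3 and 82.2. For each of these, Fpr2f/f replicate 1 was the highest of the 6 libraries and Fpr2f/f replicate 3 the lowest, so the Fpr2VKO libraries lay between them. Cks2 was the only member of this role with an estimate below 0 (-0.11, SE 0.22).

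For all 7 mitotic kinases Fpr2f/f replicate 3 was again the lowest library. Aurka was at 30.7, 27.2 and 19.0 CPM in Fpr2f/f and 29.2, 25.1 and 27.4 in the Fpr2VKO group, and Aurkb at 33.4, 23.3 and 17.8 against 27.5, 23.6 and 31.5. Plk1, the polo-like kinase of spindle assembly, was at 28.6, 25.9 and 19.2 against 24.4, 26.0 and 31.2. Pbk was at 64.2, 37.5 and 33.9 against 51.5, 50.6 and 56.4 (log2 0.29, SE 0.19, adjusted p = 0.73). All 7 kinases had estimates above 0, between 0.13 and 0.29, each less than 2 times its SE. In the ubiquitin pathway, Ube2c was at 137, 133 and 89.4 against 128, 108 and 126, and Cdc20 at 73.7, 65.5 and 46.0 against 63.3, 64.5 and 76.1. In both genes Fpr2f/f replicate 3 was the lowest library, and the groups overlapped.

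Cenpf, a large protein of the kinetochore corona, was at 82.1, 77.0 and 65.7 CPM in Fpr2f/f and 86.7, 74.5 and 102 in the Fpr2VKO group (log2 0.27, SE 0.13, adjusted p = 0.62). Nuf2 was at 18.7, 11.3 and 11.1 against 15.4, 17.6 and 17.1. All 7 kinetochore genes and all 8 spindle genes had estimates above 0, from 0.00 (Prc1, a microtubule bundler) to 0.35 (Nuf2). Mki67 was at 133, 116 and 108 against 118, 101 and 128, and Top2a, the topoisomerase that untangles sister chromatids, at 175, 163 and 147 against 161, 146 and 178. The estimates of both chromosome genes were near 0 (0.00 with an SE of 0.12 for Mki67 and 0.04 with an SE of 0.12 for Top2a).

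**Figure D2:**
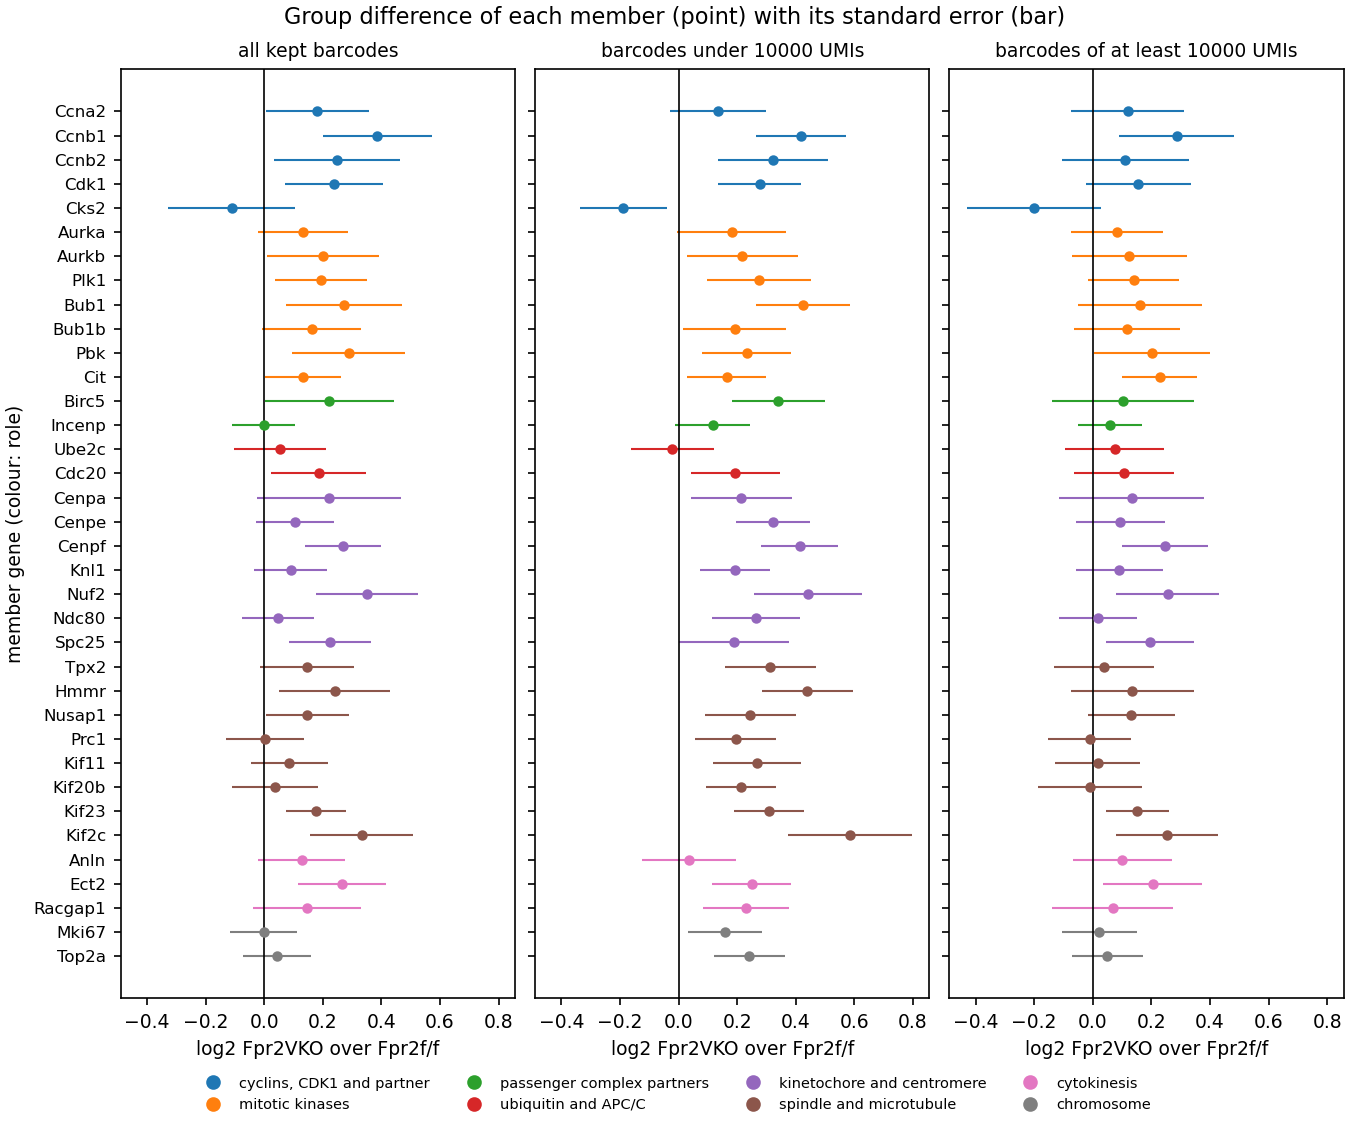
Log2 difference of Fpr2VKO over Fpr2f/f (x axis, 0 means no difference) for each of the 36 members, in all kept barcodes, in barcodes under 10000 UMIs and in barcodes of at least 10000 UMIs. Points are edgeR estimates, bars are standard errors and colours are roles. Estimates above 0 number 33, 34 and 33 of 36 in the 3 panels and none passed the adjusted threshold.

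Within single classes, no member was called between the groups either. In the stem class 0 of 36 passed (1 with unadjusted p under 0.05, as 6.93% of all genes had, 0 by DESeq2), where 0.0176% of genes were called. The median estimate was 0.11, and it was 0.00 without Fpr2f/f replicate 3. Ccnb1 had the largest estimate there, at 79.7, 49.6 and 56.2 CPM in Fpr2f/f and 73.7, 78.2 and 88.6 in the Fpr2VKO group (log2 0.37, SE 0.15, adjusted p = 0.62). Pbk followed with 125, 86.9 and 76.5 against 105, 115 and 131. In both genes Fpr2f/f replicate 1 lay among the Fpr2VKO libraries. Kif2c, a kinesin that depolymerizes microtubules, was at 23.2, 24.1 and 17.3 against 24.4, 26.4 and 28.3, and Nuf2 at 33.7, 25.7 and 33.8 against 34.2, 38.7 and 37.7. These 2 members were the only ones in the stem class whose groups did not overlap, where 6.39% of all genes did not overlap with the higher values in Fpr2VKO. Stem markers, which set this class and were mostly Olfm4 by UMIs, were at 68.2, 63.0 and 69.7 per 10000 UMIs against 97.2, 91.9 and 83.8 there. Enterocyte markers were at 5.82, 5.91 and 5.60 against 6.89, 7.23 and 7.36, and neither list overlapped between the groups. Their part in the result was not tested.

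In the no-lineage class 0 of 36 passed (3 with unadjusted p under 0.05, as 5.24% of all genes had, 0 by DESeq2), with 0.00714% of genes called. The estimates of 35 members were above 0, with a median of 0.26. At a mitochondrial limit of 10% in place of 20%, 15 of 36 were above 0 and the median was -0.03. Other marker lists moved with the group in these barcodes, and their part was not tested. Stem markers were at 4.09, 3.98 and 4.18 per 10000 UMIs in Fpr2f/f against 4.87, 4.74 and 5.42 in Fpr2VKO, and enterocyte markers at 15.6, 14.8 and 15.7 against 17.1, 18.4 and 19.4, neither with overlap. Ccnb1 was at 59.3, 45.1 and 36.9 CPM in Fpr2f/f and 57.1, 62.6 and 73.7 in the Fpr2VKO group (log2 0.43, SE 0.17, adjusted p = 0.92). Nuf2 was at 24.8, 17.1 and 14.9 against 20.6, 27.7 and 25.6. Birc5, the survivin subunit of the passenger complex, was at 169, 145 and 93.6 against 159, 174 and 190. All 3 genes were lowest in Fpr2f/f replicate 3, and the groups overlapped. For Kif23, Kif2c and Spc25 the groups did not overlap, with the higher values in Fpr2VKO, where 741 of 14000 genes did so. Without Fpr2f/f replicate 3 the median of the members fell to 0.09, and it was 0.17 without Fpr2VKO replicate 3.

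In the enterocyte class 34 members passed the filter on low counts and 0 were called (3 with unadjusted p under 0.05, as 11.3% of all genes had, 0 by DESeq2), with 0.0631% of genes called. Mki67 was at 21.7, 22.7 and 23.7 CPM in Fpr2f/f and 28.0, 24.2 and 24.5 in the Fpr2VKO group (log2 0.18, SE 0.14, adjusted p = 0.67), without overlap. Of the 34 members, 2 (Bub1 and Mki67) did not overlap with the higher values in Fpr2VKO, where 8.68% of all genes did so. Ube2c was at 12.6, 26.4 and 18.6 against 30.1, 27.0 and 16.2. Ccnb2 was at 12.9, 35.1 and 12.7 against 19.3, 32.6 and 24.7. Both overlapped widely. In the Paneth class 26 members passed the filter and 0 were called (3 with unadjusted p under 0.05, as 9.17% of all genes had, 0 by DESeq2), where 0.479% of genes were. Those 3, Incenp (log2 -1.09, SE 0.36), Anln (-0.83, SE 0.41) and Mki67 (-0.54, SE 0.26), were all lower in Fpr2VKO, and 11 of 26 estimates were above 0 (median -0.13). That direction was not stable, since 19 of 28 were above 0 without Fpr2f/f replicate 2 (median 0.27) and 26 of 34 at a mitochondrial limit of 40% (median 0.25). Anln was the only Paneth member whose groups did not overlap, where 4.09% of all genes did not overlap with the lower values in Fpr2VKO. In the enteroendocrine class 28 passed the filter and 0 were called (1 with unadjusted p under 0.05, as 3.68% of all genes had, 0 by DESeq2), with 0.0312% of genes called. Cenpf was at 14.7, 10.3 and 14.7 against 9.94, 28.7 and 45.8 there (log2 1.04, SE 0.47), with Fpr2VKO replicate 1 the lowest of all. Ube2c was at 37.5, 17.9 and 33.2 against 21.4, 60.4 and 42.9 and Kif20b at 23.6, 9.65 and 24.0 against 17.6, 23.8 and 31.5, both with overlap. Only Ect2 did not overlap in that class, with the higher values in Fpr2VKO, where 373 of 9611 genes did so. In the tuft class only 5 members, Cks2, Birc5, Ube2c, Mki67 and Top2a, passed the filter and 0 were called (0 with unadjusted p under 0.05, as 2.73% of all genes had, 0 by DESeq2), with 0.0719% of genes called. Birc5 was at 84.6, 70.4 and 35.8 there against 79.5, 26.4 and 7.14, Mki67 at 42.3, 65.5 and 61.4 against 39.7, 79.1 and 28.6, and Ube2c at 12.1, 58.2 and 40.9 against 70.6, 61.5 and 21.4. Each of these tuft values rested on 31 to 79 barcodes per library, and the groups overlapped.

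The goblet class was the lineage class in which the groups came closest to separating. The summed level of the 36 genes was 669, 914 and 820 CPM in Fpr2f/f replicates 1 to 3 and 920, 1034 and 1020 in Fpr2VKO replicates 1 to 3, without overlap. None of the 36 was called (0 with adjusted p under 0.05, 10 with unadjusted p under 0.05 as 9.51% of all genes had, all 10 higher in Fpr2VKO, and 0 by DESeq2), where 0.246% of genes were called. For 10 members, Aurka, Bub1, Ccna2, Cdk1, Cenpf, Hmmr, Incenp, Kif20b, Kif23 and Nusap1, every Fpr2VKO library exceeded every Fpr2f/f library, and for Knl1 the reverse held. Over all genes tested, 10% did not overlap with the higher values in Fpr2VKO and 5.01% with the lower. Kif20b, a kinesin of cytokinesis, was at 21.1, 29.3 and 22.0 against 38.2, 33.1 and 38.2 (log2 0.49, SE 0.17, adjusted p = 0.31). Ccna2 was at 24.3, 24.6 and 24.0 against 30.8, 37.2 and 38.6 (0.49, SE 0.16, adjusted p = 0.27), and Cenpf at 21.1, 32.1 and 24.3 against 44.8, 34.0 and 35.9 (0.46, SE 0.17, adjusted p = 0.34).

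Other measures moved with the goblet difference. Free RNA of the same libraries held 1143, 1022 and 887 CPM of members in Fpr2f/f and 1076, 1030 and 1247 in the Fpr2VKO group, as much as or more than most goblet sums, and the groups overlapped. Stem marker UMIs in goblet barcodes were 1.78, 1.74 and 1.86 per 10000 UMIs in Fpr2f/f and 2.37, 2.92 and 2.47 in the Fpr2VKO group, also without overlap. Enterocyte marker UMIs there were 12.7, 12.2 and 11.96 against 14.9, 13.9 and 15.8, again without overlap. The part of these markers in the result was not tested. The S-phase genes, at 641, 640 and 765 against 779, 813 and 881 CPM, did not overlap either. With UMIs of Paneth and goblet markers left out of the total, the summed member level was 743, 1035 and 919 against 1010, 1147 and 1128, and the groups overlapped.

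Depth separated the groups, so the comparison was made again in shallow and deep barcodes. Barcodes under 10000 UMIs made up 71.1%, 78.9% and 72.9% of Fpr2f/f and 63.6%, 55.7% and 57.1% of Fpr2VKO libraries. Among them the 36 genes summed to 2069, 2174 and 1894 CPM in Fpr2f/f replicates 1 to 3 and 2241, 2491 and 2666 in Fpr2VKO replicates 1 to 3. The means were 2045 ± 142 and 2466 ± 214 (SD, n = 3 each, log2 difference of the means 0.27), and all Fpr2VKO libraries lay above all Fpr2f/f libraries. Still, 0 of 36 members were called (edgeR, 9 with unadjusted p under 0.05 as 7.99% of all genes had, all 9 higher in Fpr2VKO, and 0 by DESeq2), where 0.00748% of 13370 genes were called. Estimates were above 0 for 34 of 36, with a median of 0.24 against 0.00 over all genes, and without each library in turn the median ranged from 0.15 to 0.38. At the 10% mitochondrial limit the direction was lost, with 17 of 36 above 0 and a median of -0.05.

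In these shallow barcodes the 2 groups did not overlap for 17 of 36 members, each higher in Fpr2VKO, where 6.90% of all genes did so. Since members vary together, these 17 are not independent results. They came from 7 of the 8 roles: Ccnb1, the kinases Bub1 and Cit, Incenp, the kinetochore genes Cenpe, Cenpf, Knl1, Nuf2 and Ndc80, the spindle genes Hmmr, Kif20b, Kif23, Kif2c and Prc1, the cytokinesis gene Ect2, and both chromosome genes Mki67 and Top2a. Hmmr, a microtubule-binding protein of the spindle poles, was at 38.0, 39.0 and 31.1 CPM in Fpr2f/f and 44.0, 46.6 and 62.4 in the Fpr2VKO group (log2 0.44, SE 0.15, adjusted p = 0.48). Ccnb1 was at 21.4, 21.8 and 18.9 against 25.1, 31.9 and 29.1 (0.42, SE 0.15, adjusted p = 0.50). Cenpf was at 84.5, 91.7 and 97.8 against 119, 111 and 148 (0.41, SE 0.13, adjusted p = 0.41). These 3 estimates were close to 3 times their SE and did not pass the adjustment over 13370 genes.

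Smaller differences were seen in the chromosome genes. Top2a was at 225, 237 and 224 CPM in Fpr2f/f and 261, 285 and 294 in the Fpr2VKO group (log2 0.24, SE 0.12, adjusted p = 0.64). Mki67 was at 158, 179 and 166 against 184, 180 and 219 (0.16, SE 0.13), where the gap between Fpr2f/f replicate 2 and Fpr2VKO replicate 2 was narrow. Kif23 was at 89.6, 94.7 and 90.7 against 120, 112 and 120 (0.31, SE 0.12, adjusted p = 0.54), with little spread inside either group. Other members overlapped. Cdk1 was at 64.8, 51.2 and 48.1 against 58.8, 69.4 and 76.7, and Ccna2 at 59.0, 71.3 and 55.8 against 56.5, 72.8 and 84.8. In both, Fpr2VKO replicate 1 lay inside the Fpr2f/f range. Aurka was at 24.2, 29.7 and 19.2 against 27.0, 32.6 and 27.3, Aurkb at 17.0 to 24.4 against 20.6 to 32.4, and Plk1 at 24.4, 28.8 and 19.5 against 27.6, 29.1 and 35.8. Between the groups, Aurka, Aurkb and Plk1 overlapped, while the kinases Bub1 and Cit, named above, did not. The 2 members with estimates below 0 were Cks2 (-0.19, SE 0.15) and Ube2c (-0.02, SE 0.14), the latter at 142, 160 and 119 against 133, 141 and 158.

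**Figure D3:**
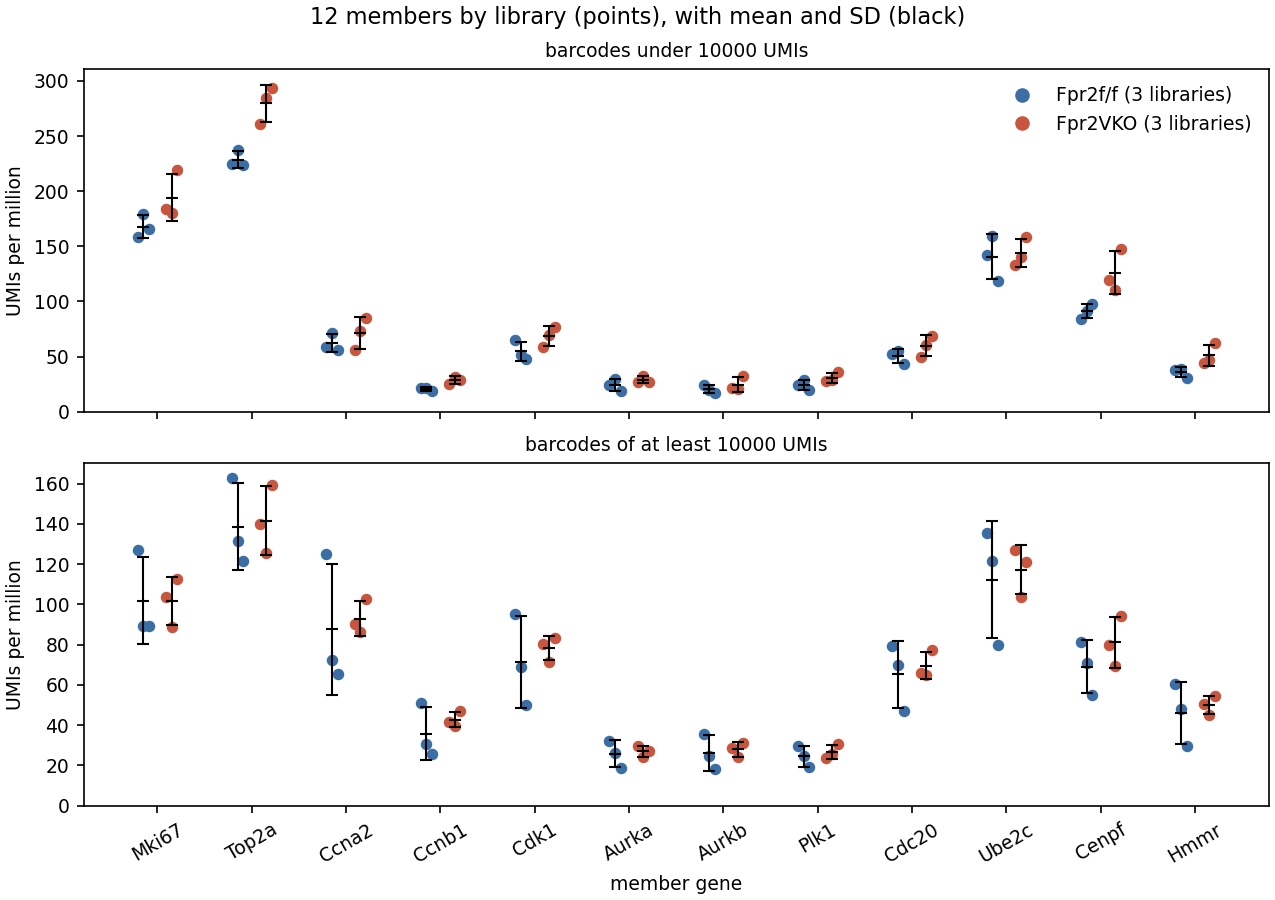
CPM of 12 members in barcodes under 10000 UMIs (top) and of at least 10000 UMIs (bottom) in each library (points: blue Fpr2f/f, red Fpr2VKO), with group mean and SD in black (n = 3 each). Heights are not comparable between genes. In the top panel Mki67, Top2a, Ccnb1, Cenpf and Hmmr have all red points above all blue points, and in the bottom panel none of the 12 do.

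The groups differed in the share of stem-class barcodes at either depth. Entry to the stem class needs at least 5 stem-marker UMIs and 20 per 10000, so these shares also depend on marker level and depth. The stem class made up 3.51%, 4.62% and 5.22% of shallow barcodes in Fpr2f/f replicates 1 to 3 and 5.41%, 7.66% and 10.2% in Fpr2VKO replicates 1 to 3, without overlap. Of deep barcodes it made up 13.1%, 10.2% and 13.8% against 19.2%, 20.3% and 19.6%, and of all kept barcodes 6.28%, 5.80% and 7.55% against 10.5%, 13.3% and 14.2%, also without overlap. The no-lineage class made up 57.9%, 60.7% and 51.9% of kept barcodes against 50.3%, 45.9% and 44.1%. Of deep barcodes it made up 51.8%, 39.6% and 39.9% against 35.4%, 31.5% and 32.6%, both without overlap. Its shares of shallow barcodes overlapped. Within the shallow no-lineage barcodes alone, the 36 genes summed to 2871, 2633 and 2647 CPM in Fpr2f/f and 2953, 3424 and 3590 in the Fpr2VKO group, again without overlap. There 0 members were called (13 with unadjusted p under 0.05 as 7.10% of all genes had, all 13 higher in Fpr2VKO), with 0.0173% of genes called. For 17 members the groups did not overlap, each with the higher values in Fpr2VKO, where 6.30% of all genes did not overlap in that direction. In no-lineage barcodes of at least 10000 UMIs 0 of 36 were called (0 with unadjusted p under 0.05, as 3.74% of all genes had), with 0.00794% of genes called. In the shallow stem class the sums were 3488, 3149 and 2210 against 3149, 3623 and 4045 and overlapped. S-phase genes summed to 1216, 1171 and 1238 against 1283, 1319 and 1379 over all shallow barcodes. They did not overlap, with a log2 difference of the means of 0.14. The part of cell makeup in the group differences was not tested.

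In barcodes of at least 10000 UMIs the summed levels overlapped. The 36 genes summed to 2598, 1951 and 1503 CPM in Fpr2f/f and 2101, 1990 and 2239 in the Fpr2VKO group, with the Fpr2VKO values inside the Fpr2f/f range. No member was called (0 with adjusted p under 0.05, 0 with unadjusted p under 0.05 as 4.86% of all genes had, 0 by DESeq2), where 0.0129% of genes were called. Estimates were above 0 for 33 of 36, with a median of 0.11. Without Fpr2f/f replicate 3, 9 were above 0 (median -0.05), and without Fpr2f/f replicate 1 all 36 were (median 0.24). All 36 were also above 0 without the top 5% of barcodes by UMIs (median 0.41), and 0 were at the 10% mitochondrial limit (median -0.35). Ccnb1 had the largest estimate, at 51.0, 30.7 and 25.8 CPM against 41.5, 39.8 and 46.9 (log2 0.29, SE 0.20), and Cenpf was at 81.4, 70.9 and 55.2 against 79.9, 69.2 and 94.5 (0.25, SE 0.15), both with overlap. Only Cit, the citron kinase of the cleavage furrow, did not overlap, at 22.3, 23.4 and 19.2 against 23.5, 25.2 and 26.8. Of all genes, 3.82% did not overlap with the higher values in Fpr2VKO. Whether the group difference itself changed with depth was tested by an interaction term, and 0 of 36 members passed (0 with unadjusted p under 0.05, as 4.62% of all genes had), with 0% of 17726 genes called. The interaction estimate, deep minus shallow, was below 0 in 33 of 36 members, with a median of -0.15 against -0.04 over all genes. Without Fpr2f/f replicate 1 the median was -0.04 against -0.06 over all genes. It ran from -0.22 to -0.10 when any other single library was left out. The shallow and deep results were therefore not shown to differ.

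Over all barcodes, the direction of the group difference turned at a mitochondrial limit of 10% in place of 20%. At a limit of 40% it held, with 34 of 36 above 0 and a median of 0.15. Barcodes over 10% made up 70.3% to 82.4% of kept barcodes per library, so the 10% limit left the smaller part. With a limit of 10% in place of 20%, the 36 genes over all barcodes summed to 2687, 1923 and 1334 CPM in Fpr2f/f and 1285, 1456 and 935 in the Fpr2VKO group, and every estimate was below 0. In barcodes of over 10% and up to 20% mitochondrial UMIs, the sums were 2380, 2111 and 1757 against 2455, 2408 and 2858, higher in every Fpr2VKO library. At the 10% limit Paneth and goblet marker UMIs took up 10.2% to 24.5% of kept UMIs in Fpr2f/f and 24.7% to 36.8% in the Fpr2VKO group, without overlap. At the 20% limit they took up 4.06%, 11.3% and 9.79% against 7.59%, 11.1% and 11.5%. Within classes the median estimate at the 10% limit was above 0 in the stem class (0.29, 35 of 36 above 0) and the goblet class (0.63, 34 of 34). It was also above 0 in the Paneth class (0.05, 8 of 14). It was below 0 in the no-lineage class (-0.03, 15 of 36 above 0), the enterocyte class (-0.66, 0 of 5) and the enteroendocrine class (-0.46, 2 of 19, in 5 libraries).

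Depth also separated the members from each other, as it did most genes. In the no-lineage class, levels in barcodes of at least 10000 UMIs were compared with levels in barcodes under 10000 UMIs of the same library. Of the 36 members, 22 were higher in the deep barcodes (background 35.0% of all genes) and 10 were lower (background 37.5%), and 4, Ube2c, Nusap1, Kif20b and Kif2c, were not called. Over all genes, 10892 of 15024 were called in either direction. The members called lower were not a larger share than that background. Ccnb2, the second B-type cyclin, had the largest difference (log2 1.42, SE 0.07), with a ratio of 2.70 that ran from 2.09 to 3.37 over the 6 libraries. It was followed by Birc5 (1.05, SE 0.09), Pbk (1.05, SE 0.08), Cenpa, the histone variant of the centromere (1.02, SE 0.07), Ccnb1 (1.02, SE 0.09) and Cks2 (0.97, SE 0.07). These transcripts thus took a larger share of the UMIs in deep barcodes, in every library.

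The members that were lower in deep barcodes were Cit (-0.88, SE 0.08), Incenp (-0.78, SE 0.07), Top2a (-0.61, SE 0.07), Mki67 (-0.58, SE 0.06), Cenpe, the kinesin of chromosome alignment (-0.57, SE 0.08), Prc1 (-0.44, SE 0.07), Knl1, the scaffold for checkpoint proteins (-0.39, SE 0.08), Cenpf (-0.31, SE 0.10), Ndc80 (-0.28, SE 0.09) and Kif23 (-0.15, SE 0.07). The ratio of Mki67 ran from 0.56 to 0.75 over the 6 libraries and was below 1 in each. Those of Cenpf (0.57 to 1.17) and Kif23 (0.75 to 1.08) were not below 1 in each. In the stem class 15 were higher (background 18.6%) and 8 lower (background 16.7%). With library totals in place of TMM factors, 19 were higher and 12 lower in the no-lineage class, and 20 higher and 6 lower in the stem class, where 71.8% and 38.5% of all genes were called in either direction. That scaling moved the median of all genes to -0.13 in the no-lineage and 0.17 in the stem class.

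Transcript length ran alongside this split. Across the 36 genes, the ratio of deep to shallow level fell with the length of the longest protein-coding transcript (Spearman's rho = -0.56 across genes, -0.67 to -0.47 within single libraries). Genes are not independent replicates, and over 10708 genes with enough UMIs the rho was -0.22. Cit (9514 bases), Mki67 (10061), Cenpf (11130), Cenpe (7910) and Knl1 (7800) were the 5 longest and all were lower in deep barcodes, while Cks2 (692), Cenpa (1466) and Ccnb2 (1531) were among the shortest and all were higher. Top2a (5221 bases) was lower too. Incenp (3236), Prc1 (3026) and Kif23 (3398) were also lower, at lengths like that of Birc5 (3334), which was higher. Ndc80 (2201) was lower, while Plk1 (2199) was higher at nearly the same length. Median mitochondrial percent in the shallow barcodes was 13.7 to 16.0 per library, and the part of RNA quality in the split was not tested.

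**Figure D4:**
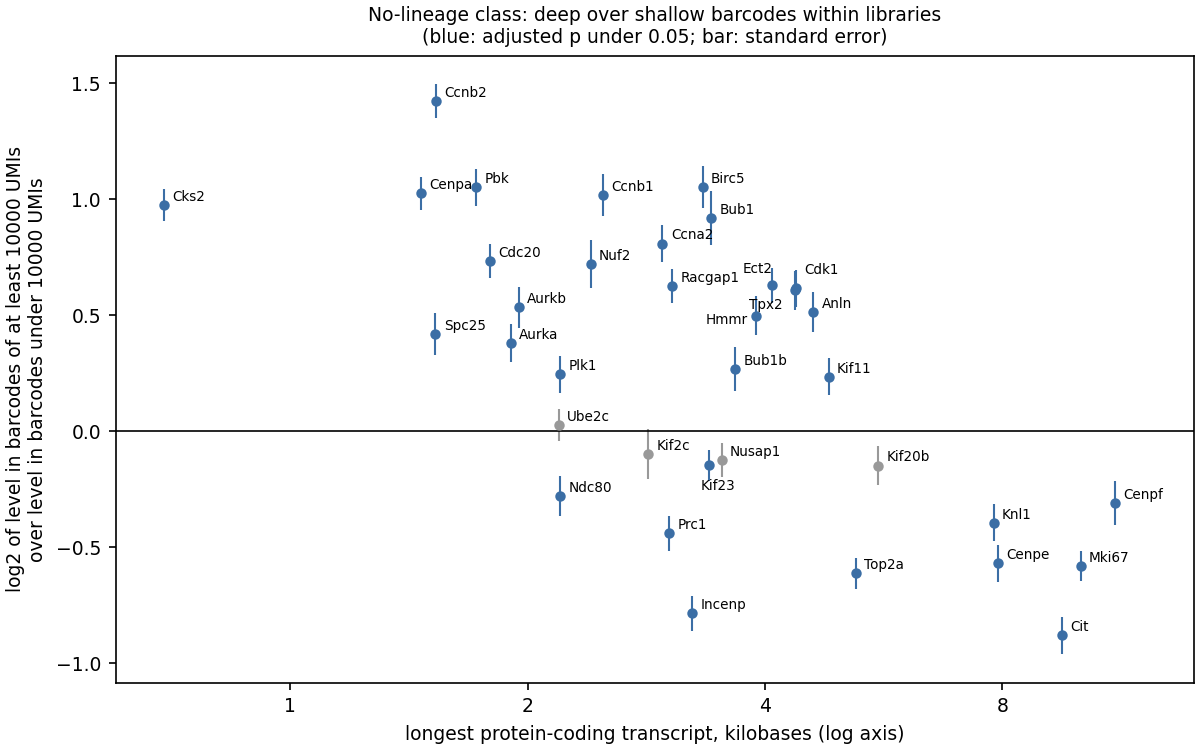
Log2 of the level in deep over shallow barcodes of the no-lineage class, within libraries (y axis, bars: standard error), against the length of each member's longest protein-coding transcript in kilobases (log axis). Blue points passed the adjusted threshold and grey points did not. Ccnb2 is highest at 1.42 and the 5 longest members all lie below 0.

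The members varied together across single barcodes but differed in how they varied with S-phase genes. For 2910 stem and no-lineage barcodes of at least 10000 UMIs, each thinned to 10000, the sum of the 36 genes correlated with the sum of the other G2/M genes at r = 0.90 and with the sum of the S-phase genes at r = 0.27. These values describe barcodes that share libraries and are given without a test. The median r between a pair of members was 0.35. Ccnb2 was most like Cenpa (r = 0.56) and next like Cdc20 (0.52), and Ccna2 was most like Birc5 (0.58). Top2a was most like Cdk1 (0.58), Mki67 and Prc1 most like Top2a (0.57 each), and Cenpf most like Ube2c (0.57).

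Relation to S phase ordered the same genes. Top2a had the highest r with the S-phase sum (0.33), followed by Cdk1 (0.25), Pbk (0.25), Kif11, the motor that separates the spindle poles (0.19), Aurkb (0.19), Mki67 (0.19) and Incenp (0.18). Cdc20 (-0.07), Ccnb2 (-0.04), Cenpa (-0.04), Cenpf (-0.02) and Ccnb1 (-0.02) had values just below 0. With sparse counts such weak values order the genes only loosely. Kif2c, the member with the fewest kept UMIs (2659), had the lowest r with the sum of the other members (0.33).

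**Figure D5:**
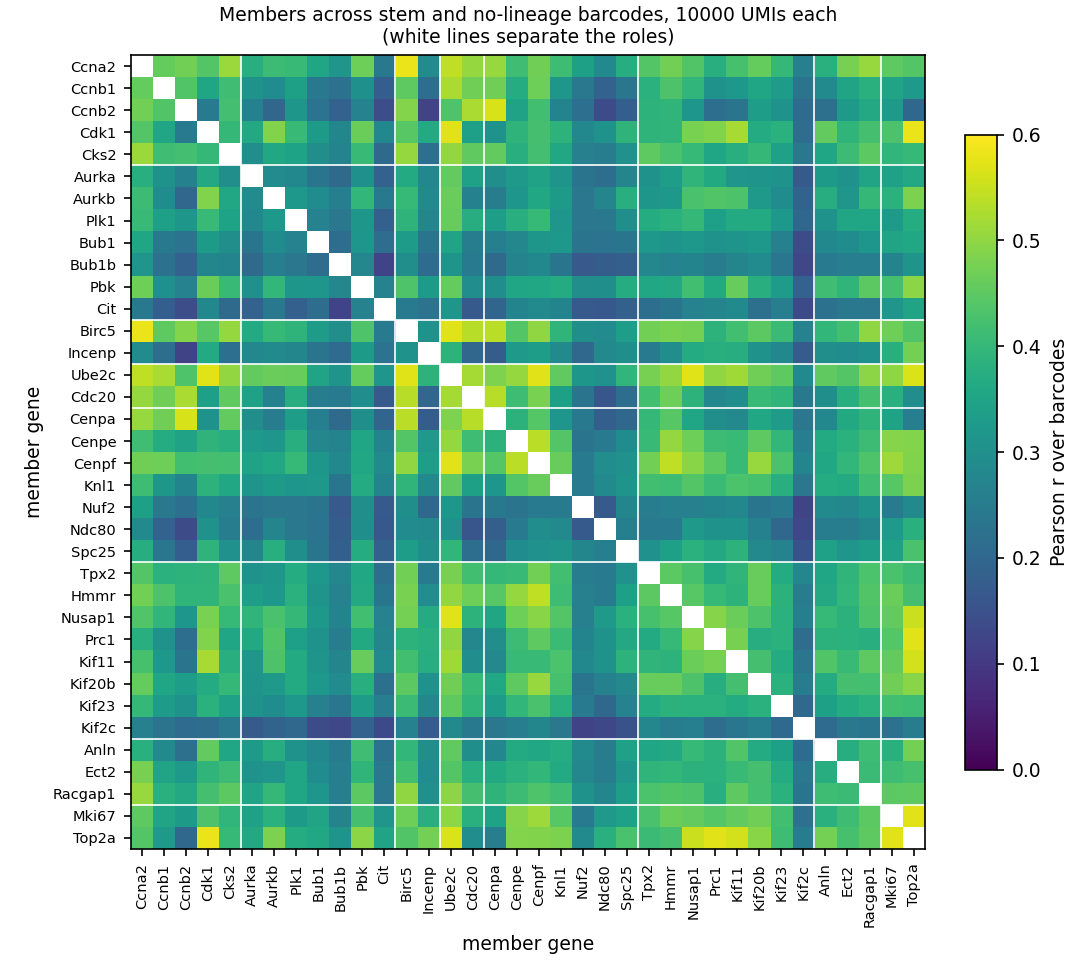
Pearson r between each pair of the 36 members over 2910 stem and no-lineage barcodes thinned to 10000 UMIs (colour scale from 0 to 0.6, diagonal left blank). White lines separate the roles. The median pair is at 0.35, and bright cells join genes of different roles, such as Ccnb2 with Cenpa and Top2a with Cdk1.

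Other cell cycle genes were read from the same fits. The list of 66 other G2/M and mitosis genes had all 66 tested members higher in the stem than in the enterocyte class (median log2 3.24, where 39.2% of all genes were called higher), and 33 of 34 S-phase genes were higher and 1 lower (median 3.49). Of 12 G1 cyclins and CDK inhibitors, 9 were higher and 2 lower (median 1.12). Between the groups, 0 genes of these 3 lists were called by edgeR over all kept barcodes, where 4 of 66, 2 of 34 and 1 of 12 had an unadjusted p under 0.05, as 8.45% of all genes had. In barcodes under 10000 UMIs the median estimate was 0.20 for the other G2/M genes, 0.08 for the S-phase genes and 0.19 for the G1 list, again with 0 called (13, 3 and 1 with unadjusted p under 0.05, as 7.99% of all genes had). In the stem class the S-phase genes had a median of -0.10, with 6 of 34 estimates above 0, while the 36 mitosis genes had 29 above 0. These lists were chosen with earlier results of the same libraries known, and none of these counts is a test of the list.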

How the data were processed

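Libraries of EpCAM+ ileal crypt cells were compared as 3 Fpr2f/f against 3 Fpr2VKO samples, grouped by the labels. The deposited matrices hold raw UMI counts per gene and barcode, which the authors made with MobiVision on mm10. The annotation version and the strand setting are not given in the sources used here, and the deposited counts precede any cell filter, which the study ran with Seurat 4.0.0.

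Barcodes with at least 1000 UMIs, 500 genes and at most 20% mitochondrial UMIs were kept. A marker list was raised when its UMIs per 10000 reached 20 (stem), 50 (enterocyte), 500 (Paneth), 150 (goblet), 30 (enteroendocrine), 10 (tuft) or 40 (immune), with at least 5 UMIs of at least 2 genes. No doublet caller was run. Barcodes raising several lists were set aside from the classes but kept in the sums over all barcodes. Free RNA was not removed.

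UMIs were summed per library and class (at least 20 barcodes) and tested over all genes with edgeR 4.0.16 (R 4.3.3, TMM, filterByExpr, robust quasi-likelihood test, Benjamini-Hochberg adjustment over all genes tested), and with DESeq2 1.42.0 as another tool. SEs were derived from the log2 difference and the quasi-likelihood F value. Levels are CPM, UMIs scaled to the total of the same barcodes, and log2 differences come from the fit. Pairs of classes or depths were tested within libraries. Promoters and positions came from RefSeq (GRCm38.p6) and GENCODE (GRCm38). In simulated data the edgeR test recovered 99.0% of 4-fold and 80.0% of 2-fold changes over all kept barcodes (16917 genes), and 77.7% and 53.8% for the interaction (17726 genes). The simulation gave all genes 1 common spread and held no change under 2-fold. It therefore cannot tell how often differences as small as those of the members would be called.

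Values in every library were given over all kept barcodes for 11 members fixed by name and, in each comparison between groups, for the 3 members of largest absolute log2 difference with a mean of at least 20 CPM. Some values were given outside this rule, among them Nuf2 over all kept barcodes and in the stem class and Kif23 in shallow barcodes. The members and lists were chosen with earlier results of these data known. The marker limits, the class by depth splits, the stem over no-lineage and deep over shallow comparisons and the mitochondrial bins were set after seeing the data. Replicate numbers did not pair the libraries (correlations of same-numbered deviations -0.10, -0.05 and 0.20).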

Additional observations from a re-analysis of the deposited data

How the results depend on the processing

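Of 151 alternative fits of the 10 group comparisons, 148 called 0 of the members they tested, and 0.00565% to 1.64% of all genes were called over the 151. Several class fits tested fewer than 36 members, down to 1 in the Paneth and enteroendocrine classes thinned to 3000 UMIs. In barcodes under 10000 UMIs, leaving out the top 5% gave the main fit again. Those 151 covered DESeq2, no filter on low counts, library totals, mitochondrial limits of 10% and 40%, a lowest total of 2000 UMIs, leaving out the top 5% of barcodes, thinning to 3000 UMIs, higher marker limits, stem markers without Olfm4, the replicate block and each library left out. The higher marker limits were run only in the stem, no-lineage and enterocyte classes. The exceptions were 1 member in the enterocyte class without a filter (Birc5, log2 0.65, adjusted p = 0.040, with 0.886% of all genes called), 3 in the goblet class at the 10% mitochondrial limit (Ccna2 1.06, Cdk1 1.04 and Hmmr 1.10, adjusted p = 0.022, 0.046 and 0.048, with 0.455% of genes called), and 1 lower in the Paneth class without the top 5% of barcodes (Incenp -2.13, adjusted p = 0.016, with 1.64% of genes called). In the alternatives of these 3 comparisons not named here, 0 were called. All 10 alternatives of the interaction called 0, and the replicate block called 0 members in every group comparison. Calls without each library in turn ranged from 0 to 0 in the group comparisons (0.00565% to 0.991% of all genes) and from 36 to 36 against enterocytes (62.7% to 75.7%). They ranged from 31 to 33 for deep over shallow no-lineage barcodes (69.4% to 70.7% of all genes) and from 20 to 24 for the stem class (29.8% to 34.3%). The cause of these changes was not tested.

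At the 10% mitochondrial limit the Fpr2VKO mean of the summed level was 1225 CPM. Median differences there were -0.34 over all barcodes, -0.35 in deep barcodes, -0.05 in shallow barcodes, -0.03 in the no-lineage class and -0.66 in the enterocyte class (5 members tested). Without the top 5% of barcodes the median rose to 0.37 over all barcodes and 0.41 in deep barcodes. It rose to 0.29 in the stem class (36 of 36 above 0) and 0.39 in the no-lineage class, and fell to 0.09 in the enterocyte class. At a mitochondrial limit of 40% it was 0.06 in the stem class, 0.15 in the no-lineage class and 0.46 in the enterocyte class. Without each library in turn, medians ranged from 0.01 to 0.29 over all barcodes, from 0.00 to 0.19 in the stem class, from 0.09 to 0.33 in the no-lineage class, from 0.20 to 0.50 in the goblet class, from -0.43 to 0.27 in the Paneth class, from 0.15 to 0.38 in shallow barcodes and from -0.05 to 0.24 in deep barcodes. They ranged from 0.15 to 0.55 in the enterocyte class, from -0.24 to 0.52 in the enteroendocrine class and from -0.53 to 0.09 in the tuft class. The mean share of barcodes rich in member UMIs over all classes was 38.2% (Fpr2f/f) and 39.0% (Fpr2VKO) when thinned to 3000 UMIs and 31.1% and 31.6% at 10000. In the no-lineage class it was 54.1% and 61.3% at 3000 and 48.8% and 53.6% at 10000, with overlap in each case. The tuft class was not run at the 10% mitochondrial limit or thinned to 3000 UMIs, since too few barcodes were left.

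With 3 libraries a group, the median SE of a member was 0.16 over all kept barcodes, 0.32 in the enterocyte class and 0.45 in the enteroendocrine class. Sums over a class cannot tell fewer dividing cells from less RNA per dividing cell.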
